A study of Mus musculus with 16 samples.

Results

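Expression of 10 genes that mark stem cells or respond to Wnt signalling was examined in the colon epithelium. Cells labelled through Atoh1 expression at the time of tamoxifen were set against unlabelled cells, which may have expressed Atoh1 earlier. The genes were chosen by name from the 45513 genes counted: Lgr5, Ascl2, Axin2, Smoc2, Rnf43, Znrf3, Sox9, Lrig1, Cdca7 and Lgr4. All 10 passed the filter on low counts, which 15841 genes passed in all. Libraries came from 8 mice of C57BL/6 background, males and females of 8 to 16 weeks. All were homozygous for the Atoh1(WT)CreERT2 allele and carried 1 copy of the Rosa26tdTom reporter. In this allele the tamoxifen-dependent recombinase CreERT2 follows the Atoh1 coding sequence and is driven by Atoh1, the transcription factor that specifies secretory cells, so tamoxifen leaves a permanent tdTom label in cells that express Atoh1 at that time. For these libraries, which define the secretory signature, the sample labels and the methods on animal treatment both state 3 daily doses of 1 mg tamoxifen. The methods on sequencing state 3 mg and collection after 24 h. From each colon, live EpCAM+ cells with the label (tdTom+) and without it (tdTom-) were sorted and sequenced as bulk RNA, which gave 8 libraries in each group and 1 pair in each mouse. Small intestinal cells and mice with the 9S/T-A allele were not used here.

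Colonic crypts are renewed by Lgr5+ stem cells at the crypt base. There, Wnt ligands engage Frizzled receptors and LRP co-receptors, β-catenin accumulates and TCF factors switch on target genes. R-spondins bind LGR4 and LGR5 and thereby clear RNF43 and ZNRF3, a pair of membrane ubiquitin ligases that remove Frizzled, while AXIN2 belongs to the complex that degrades β-catenin. Secretory progenitors leave the stem cell zone, and the members differ in how far into that lineage they are known to be used: Sox9, for example, is also active in secretory cells.

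Upstream sequence was available for 6 members in the RefSeq table for GRCm38.p6, and 4 windows are printed as the DNA next to genes that moved in opposite directions. Ascl2, Axin2 and Lgr4 were lower in tdTom+ cells, and Lrig1 was higher. Each window ends next to the annotated gene, at most 250 bases upstream of the RefSeq start, and is written 5′ to 3′ on the gene's own strand. They lie at chr7:142969265-142969514 (minus strand), chr11:108920099-108920348 (plus), chr2:109917397-109917646 (plus) and chr6:94700159-94700395 (minus), in this order. The TCF/LEF core (CTTTG followed by AA, AT, TA or TT, on either strand) and the E-box CANNTG, the 6-base core bound by basic helix-loop-helix factors such as ATOH1 and ASCL2, were searched. Capitals mark the E-boxes, which were found upstream of Ascl2 at −249 and −98 from the RefSeq start.
Ascl2: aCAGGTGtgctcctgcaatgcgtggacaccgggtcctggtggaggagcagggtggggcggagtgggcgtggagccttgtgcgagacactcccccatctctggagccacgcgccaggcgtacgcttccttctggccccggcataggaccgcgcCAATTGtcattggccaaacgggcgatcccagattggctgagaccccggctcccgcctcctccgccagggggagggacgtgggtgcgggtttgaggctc
Axin2: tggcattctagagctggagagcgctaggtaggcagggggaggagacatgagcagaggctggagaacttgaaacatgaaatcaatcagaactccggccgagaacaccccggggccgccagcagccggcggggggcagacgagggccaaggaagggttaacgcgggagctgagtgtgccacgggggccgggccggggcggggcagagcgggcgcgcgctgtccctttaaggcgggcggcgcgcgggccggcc
Lgr4: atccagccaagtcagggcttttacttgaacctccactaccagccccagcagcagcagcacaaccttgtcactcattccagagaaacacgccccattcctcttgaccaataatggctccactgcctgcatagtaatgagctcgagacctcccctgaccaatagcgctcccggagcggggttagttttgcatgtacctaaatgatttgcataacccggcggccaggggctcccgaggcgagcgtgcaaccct
Lrig1: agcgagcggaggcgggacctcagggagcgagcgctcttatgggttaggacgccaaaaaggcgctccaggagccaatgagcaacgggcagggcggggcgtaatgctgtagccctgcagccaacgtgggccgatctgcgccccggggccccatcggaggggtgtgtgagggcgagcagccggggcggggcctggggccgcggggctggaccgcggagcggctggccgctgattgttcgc
None of the 7 windows of these 6 members held the TCF/LEF core, which was present in 14.8% of 32851 windows of 250 bases in the table. Sequence outside these windows was not searched, so the absence applies to them only. CANNTG was present in 66.2% of all windows and in the windows of 2 of the 6 members, Ascl2 and Rnf43. The 2 Rnf43 windows lie within the annotated gene and the Cdca7 window partly so, and they are not printed. Lgr5, Smoc2, Znrf3 and Sox9 were named only.

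Total counts per library ran from 16482530 to 45791503. The largest library was the tdTom- library of mouse 4, and no other exceeded 24218367. The labelled gene Atoh1 was at 102 to 166 CPM (counts scaled to a library of 1e6, with TMM-normalised library sizes) in tdTom+ and at 3.18 to 8.89 CPM in tdTom- libraries. The goblet cell mucin Muc2 was at 11700 to 16980 CPM and 278 to 908 CPM. Reads on mitochondrial genes made up 2.23% to 6.92% of counts in tdTom+ and 3.74% to 9.97% in tdTom- libraries. In bulk samples, fewer cells of a type and less RNA per cell cannot be told apart. Populations were compared with the quasi-likelihood F-test of edgeR, p-values were adjusted over all genes tested by the Benjamini-Hochberg method, and the threshold was an adjusted p under 0.01.

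Of the 10 genes, 7 were lower in tdTom+ cells (Lgr4, Ascl2, Lgr5, Cdca7, Smoc2, Axin2 and Rnf43), 2 were higher (Sox9 and Lrig1) and 1, Znrf3, did not pass. Over all genes tested, 25.5% were lower and 25.5% higher by the same rule. The log2 fold changes of the members ran from −0.90 for Lgr4 to 0.62 for Sox9, with a median of −0.35, beside 0.004 over all genes. The 7 that were lower kept between 53.5% (Lgr4) and 86.1% (Rnf43) of their tdTom- level in the fit. In paired terms, 7 members were lower in tdTom+ cells in all 8 mice, as were 26.0% of genes tested, and 2 were higher in all 8, as were 25.4%. The CPM ranges of the groups did not overlap for Lgr4 and Cdca7, which were lower (15.3% of genes tested), and for Sox9 and Lrig1, which were higher (15.2%).
The mouse numbers in the sample titles form 3 series, mice 1 to 3, mouse 4 and mice 5 to 8. Within mice 1 to 3 and within mice 5 to 8, 4 members were lower and 2 higher by the same test, and Axin2, Smoc2 and Rnf43 did not pass in either. Blocked by mouse, 5 were lower within mice 1 to 3, where Axin2 and Rnf43 did not pass, and 6 within mice 5 to 8, where Rnf43 did not. Without the block, leaving out mouse 1 alone also reduced the 7 to 4. Over all 8 mice the blocked model again gave 7 lower and 2 higher, and without mouse 1 the blocked fit still gave 7. The shares of 25.5% hold for the unblocked fit of all 8 mice, and shares for these other fits are not given here. These other counts therefore cannot be set against all genes tested.

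**Figure D1:**
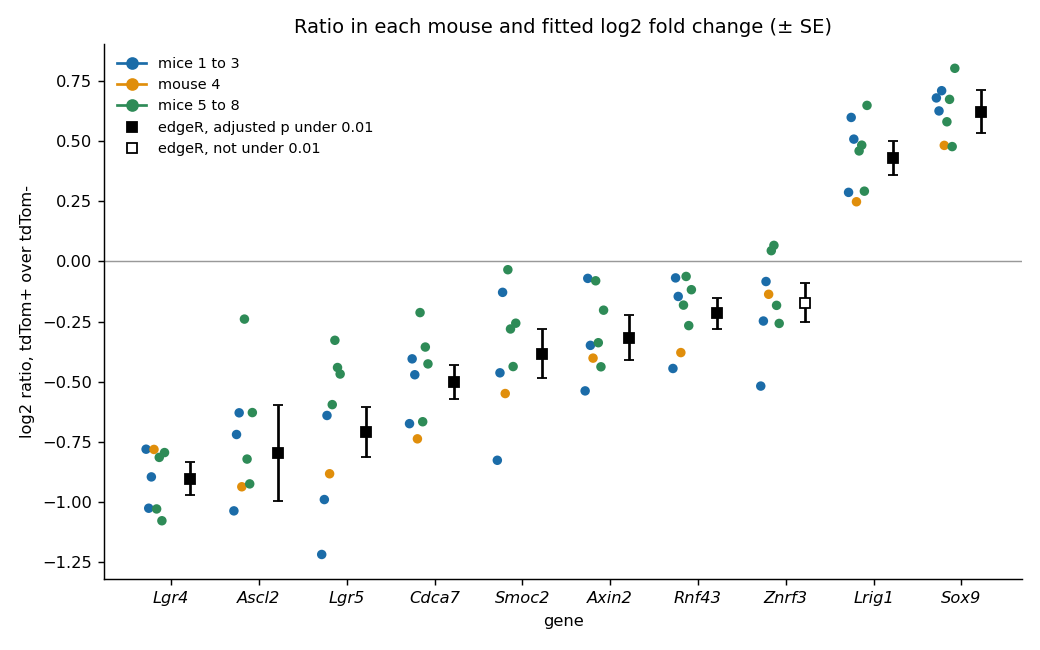
Log2 ratio of tdTom+ over tdTom- level (vertical axis) for each of the 10 genes (horizontal axis). Coloured points are the 8 mice by number series, and black squares with bars are the edgeR log2 fold change ± SE, open where the adjusted p was not under 0.01. All points lie below 0 for the 7 genes from Lgr4 to Rnf43 and above 0 for Lrig1 and Sox9, while Znrf3 has points on both sides.

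Both R-spondin receptors were lower in tdTom+ cells, and with Ascl2 they had the 3 largest decreases among the members. Lgr5, the marker of crypt base stem cells (ENSMUSG00000020140, chromosome 10 from 115450311 to 115587780 of GRCm38, minus strand), ranged from 18.3 to 26.8 CPM in tdTom+ libraries (median 21.7) and from 26.1 to 46.5 CPM in tdTom- libraries (median 34.98). The groups met at their edges, where the highest tdTom+ value (mouse 6) exceeded the lowest tdTom- value (mouse 8). Lgr5 fell by 0.71 on the log2 scale (SE 0.10, adjusted p = 5.32e-06), to 61.1% of its tdTom- level. Its ratio was below 0 in 8 of 8 mice, and it ran from −1.22 in mouse 1 to −0.33 in mouse 6.
Lgr4, a broadly expressed relative of Lgr5 that is active in crypt cells beyond the stem cells (ENSMUSG00000050199, chromosome 2 from 109917647 to 110014257, plus strand), ranged from 87.6 to 107 CPM in tdTom+ libraries (median 102.0) and from 150 to 218 CPM in tdTom- libraries (median 188). Every tdTom+ library was below every tdTom- library. Lgr4 fell by 0.90 (SE 0.07, adjusted p = 2.56e-10), with ratios between −1.08 and −0.78. The third receptor of this family, Lgr6, had at most 5 counts in any library and was not tested.

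Ascl2, a transcription factor needed for colonic stem cell identity (ENSMUSG00000009248, chromosome 7 from 142966822 to 142969264, minus strand), was the member with the lowest level in CPM. It ranged from 5.02 to 10.8 CPM in tdTom+ libraries (median 8.46) and from 7.56 to 22.3 CPM in tdTom- libraries (median 13.97), on 84 to 1019 counts in a library. The ranges overlapped, but within each mouse the tdTom+ library was lower. Ascl2 fell by 0.79 (SE 0.20, adjusted p = 0.00172). The SE was the largest among the members. Blocked by mouse, the value was −0.76 (adjusted p = 4.1e-07).
Smoc2, which encodes a secreted matrix protein enriched in Lgr5+ cells (ENSMUSG00000023886, chromosome 17 from 14279506 to 14404790, plus strand), ranged from 51.2 to 70.1 CPM in tdTom+ (median 64.8) and from 62.6 to 103 CPM in tdTom- libraries (median 77.8). The ranges overlapped, and the ratio ran from −0.83 in mouse 1 to −0.04 in mouse 5. Smoc2 fell by 0.38 (SE 0.10, adjusted p = 0.00251). Without mouse 1 the value was −0.31 (adjusted p = 0.0146), which did not pass. Blocked by mouse, the value was −0.37 (adjusted p = 0.00015), and without mouse 1 it was −0.30 (adjusted p = 0.000389), which passed.

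The genes of Wnt negative feedback had the smallest decreases among the members that were not higher. Axin2, a direct target that limits β-catenin (ENSMUSG00000000142, chromosome 11 from 108920349 to 108950783, plus strand), ranged from 52.7 to 74.1 CPM in tdTom+ libraries (median 61.6) and from 62.1 to 97.9 CPM in tdTom- libraries (median 72.5). It was highest in mouse 4 in both populations. Axin2 fell by 0.32 (SE 0.09, adjusted p = 0.00654), close to the threshold. In this unblocked fit it did not pass when mouse 1, 3, 6 or 7 was left out (adjusted p = 0.0119 to 0.0248). Blocked by mouse, the value was −0.30 (adjusted p = 0.000108), and Axin2 passed with any 1 mouse left out (adjusted p = 5.2e-05 to 0.000663).
Rnf43 (ENSMUSG00000034177, chromosome 11 from 87662722 to 87735539, plus strand) ranged from 53.5 to 62.8 CPM in tdTom+ (median 58.5) and from 58.04 to 81.7 CPM in tdTom- libraries (median 65.7). It fell by 0.22 (SE 0.07, adjusted p = 0.00674) and did not pass when mouse 1, 3, 4, 5 or 7 was left out (adjusted p = 0.0117 to 0.0325). It was lower in 8 of 8 mice and passed when blocked by mouse (−0.21, adjusted p = 0.00158). The blocked fit did not pass without mouse 4 (adjusted p = 0.0111), and passed with any other mouse left out (adjusted p = 0.00151 to 0.00648).
Znrf3, the partner ligase of Rnf43 (ENSMUSG00000041961, chromosome 11 from 5276324 to 5444847, minus strand), ranged from 15.99 to 20.7 CPM in tdTom+ (median 17.3) and from 15.6 to 23.2 CPM in tdTom- libraries (median 19.4). It was lower in tdTom+ cells in 6 of 8 mice. Its log2 fold change was −0.17 (SE 0.08, adjusted p = 0.0719; blocked by mouse, −0.17 and 0.0372). The 95% interval of the unblocked value was −0.33 to −0.01.

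Cdca7, which encodes a chromatin-associated protein of crypt base and dividing cells (ENSMUSG00000055612, chromosome 2 from 72476159 to 72486893, plus strand), ranged from 52.0 to 65.5 CPM in tdTom+ (median 58.2) and from 70.0 to 99.4 CPM in tdTom- libraries (median 79.4). No tdTom+ library reached the lowest tdTom- library. Cdca7 fell by 0.50 (SE 0.07, adjusted p = 2.48e-06).
Sox9, a transcription factor of crypt base and secretory cells (ENSMUSG00000000567, chromosome 11 from 112782224 to 112787760, plus strand), moved the other way. It ranged from 121 to 175 CPM in tdTom+ (median 136) and from 74.3 to 110 CPM in tdTom- libraries (median 89.7), with no overlap. The log2 fold change was 0.62 (SE 0.09, adjusted p = 3.66e-06), and the ratio was above 0 in 8 of 8 mice, from 0.48 to 0.80.
Lrig1, a membrane protein that restrains ErbB receptors and marks crypt progenitors (ENSMUSG00000030029, chromosome 6 from 94604529 to 94700158, minus strand), ranged from 227 to 257 CPM in tdTom+ (median 242) and from 146 to 214 CPM in tdTom- libraries (median 181). The tdTom+ libraries again lay above all tdTom- libraries. Its log2 fold change was 0.43 (SE 0.07, adjusted p = 1.84e-05), from 0.25 in mouse 4 to 0.65 in mouse 8. None of the members shared exon bases with another gene on its strand, and counting was stranded.

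**Figure D2:**
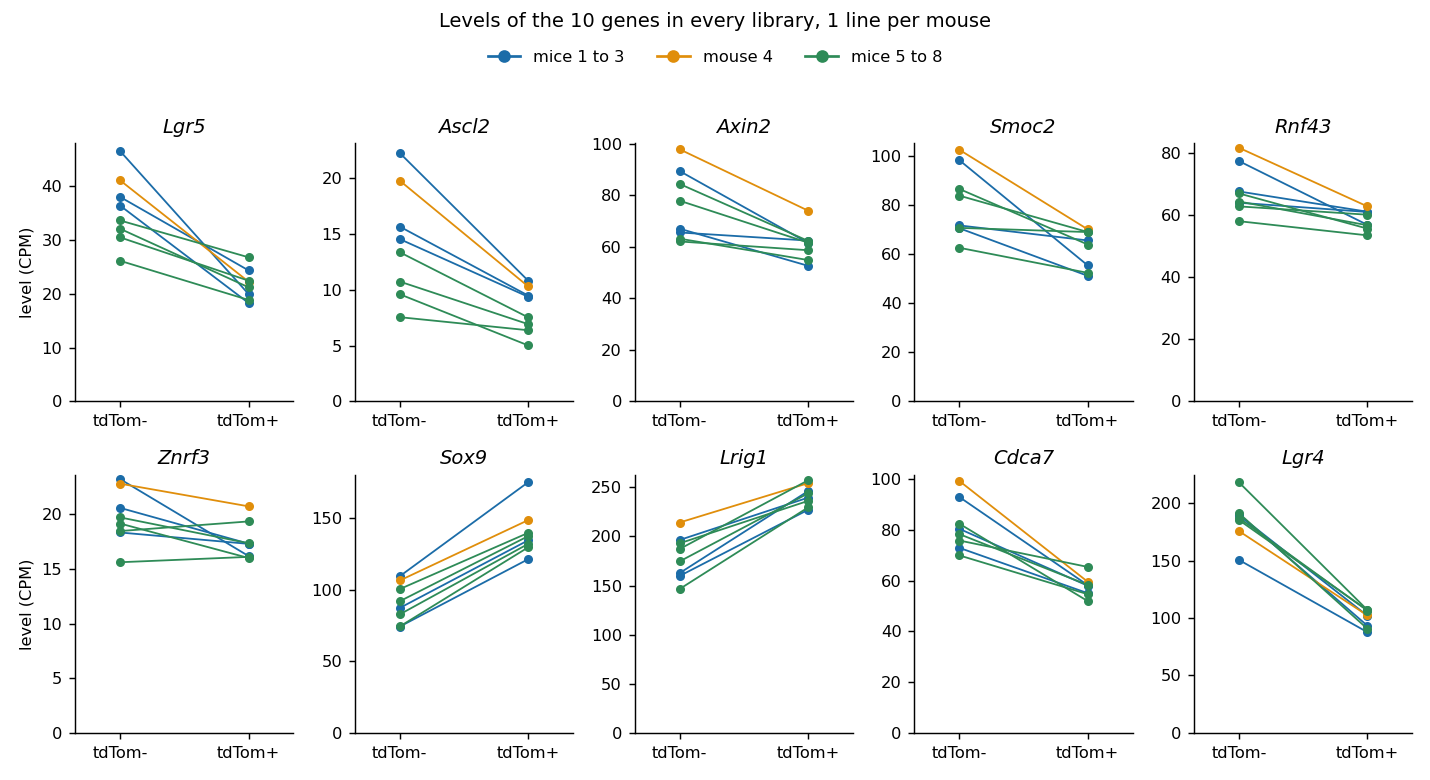
Level in CPM (vertical axis, from 0) of each gene in the tdTom- and tdTom+ library of every mouse, with 1 line per mouse coloured by number series. Lines slope down in all 8 mice for Lgr5, Ascl2, Axin2, Smoc2, Rnf43, Cdca7 and Lgr4, and up in all 8 for Sox9 and Lrig1.

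The ratios of 3 pairs of members were compared within mice by an exact two-sided sign-flip permutation test over the 8 mice, with adjustment over the 3 pairs and a threshold of 0.05. The ratio of Lgr5 exceeded that of its relative Lgr4 by 0.20 ± 0.35 on the log2 scale (SD, n = 8; 95% interval −0.09 to 0.50), in 6 of 8 mice, and the difference did not pass (exact p = 0.156, adjusted p = 0.234). The ratio of Znrf3 exceeded that of Rnf43 by 0.04 ± 0.16 (SD, n = 8; 95% interval −0.09 to 0.18; exact p = 0.461, adjusted p = 0.461). The ratio of Axin2 exceeded that of Lgr5 by 0.39 ± 0.32 (SD, n = 8; 95% interval 0.12 to 0.66), in 7 of 8 mice (exact p = 0.0234), and did not pass after adjustment (adjusted p = 0.0703). The smallest p this design allows is 0.0078. Neither the receptor pair nor the ligase pair was therefore shown to be reduced unequally, and the intervals leave room for differences of up to 0.50 and 0.18.

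Levels of different genes were compared as CPM per kb of exon. In tdTom- cells Lrig1 was at 32.1 ± 4.01, Lgr4 at 31.6 ± 3.18, Smoc2 at 28.6 ± 5.07, Cdca7 at 25.5 ± 3.12 and Sox9 at 21.99 ± 3.30 CPM per kb (SD, n = 8), and the ranges of neighbours in this order overlapped. Axin2 followed at 13.8 ± 2.46, below every Sox9 value, then Rnf43 at 10.3 ± 1.198 and Ascl2 at 8.81 ± 3.12 CPM per kb, again with overlapping ranges. Lgr5 at 3.46 ± 0.62 and Znrf3 at 2.50 ± 0.31 CPM per kb came last, with overlapping ranges, although Lgr5 was above Znrf3 in 8 of 8 mice. By this measure the stem cell marker was among the least abundant of these transcripts in either population. The measure depends on the annotated exon length, which was largest for Lgr5 (10264 bases). In mean CPM Lgr5 (21.75 in tdTom+, 35.5 in tdTom-) lay above Znrf3 (17.5 and 19.7) and Ascl2 (8.23 and 14.2), and below the other members.
In tdTom+ cells the order changed at the top and at the bottom. Lrig1 at 43.3 ± 1.93 and Sox9 at 33.8 ± 3.95 CPM per kb stood first, with overlapping ranges, and every Sox9 value was above every Smoc2 value (21.9 ± 2.78 CPM per kb, SD, n = 8). Axin2 at 11.1 ± 1.17, Rnf43 at 8.92 ± 0.493 and Ascl2 at 5.11 ± 1.28 CPM per kb kept their places. Lgr4 moved from the second to the fifth place, at 16.9 ± 1.33, behind Cdca7 at 18.02 ± 1.26 CPM per kb, which overlapped it. Lgr5 at 2.12 ± 0.28 and Znrf3 at 2.22 ± 0.21 CPM per kb were not separated, and Znrf3 was higher in 5 of 8 mice.

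**Figure D3:**
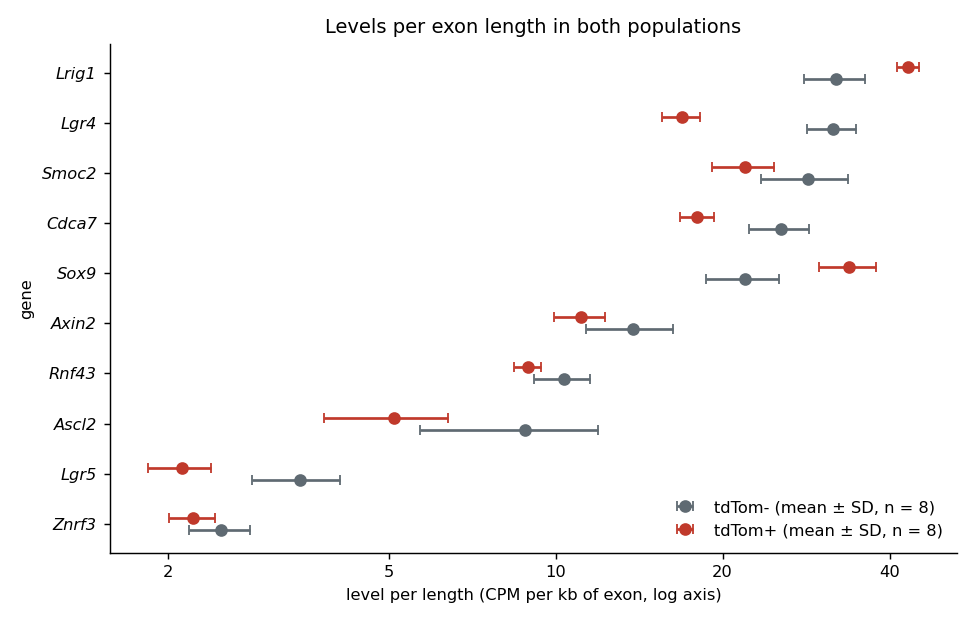
Level per exon length (horizontal axis, CPM per kb, log axis) of the 10 genes in tdTom- (grey) and tdTom+ (red) libraries, as mean ± SD over 8 libraries. Lrig1 and Sox9 are shifted to the right in tdTom+ cells, the others to the left, and Lgr5 and Znrf3 are the lowest in both populations.

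The members varied more between mice in tdTom- than in tdTom+ cells. The SD of log2 CPM was larger in tdTom- libraries for 10 of 10 members, beside 44.4% of all genes tested. Ascl2 had the widest spread (0.52 in tdTom-, 0.38 in tdTom+) and Lgr4 (0.15) the narrowest in tdTom- cells.
Among tdTom- libraries, 9 members were highest in mouse 1 (Lgr5, Ascl2, Znrf3 and Sox9) or in mouse 4 (Axin2, Smoc2, Rnf43, Lrig1 and Cdca7), beside 31.9% of all genes tested. This grouping of mice was chosen after the values were seen. Lgr4 was the exception, lowest in mouse 1 and highest in mouse 5. The summed level of 10 colonocyte markers in tdTom- libraries was lowest in mouse 4 (8229 CPM), while mouse 1 at 11590 CPM lay within the range of the others (10270 to 16470 CPM). The summed level of 12 proliferation genes was highest in mouse 4 (1677 CPM), and mouse 1 was at 1330 CPM. The summed level of 9 goblet genes was 2475 CPM in mouse 1 and 2332 CPM in mouse 4, the 2 lowest (others 2918 to 9032 CPM). That of 10 enteroendocrine genes was highest in mouse 1 (4034 CPM) and lowest in mouse 4 (1377 CPM). For 10 tuft cell genes mouse 4 was lowest at 104.9 CPM, with the others between 148.5 and 178.1 CPM. The part of these marker differences in the members' levels was not tested.

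**Figure D4:**
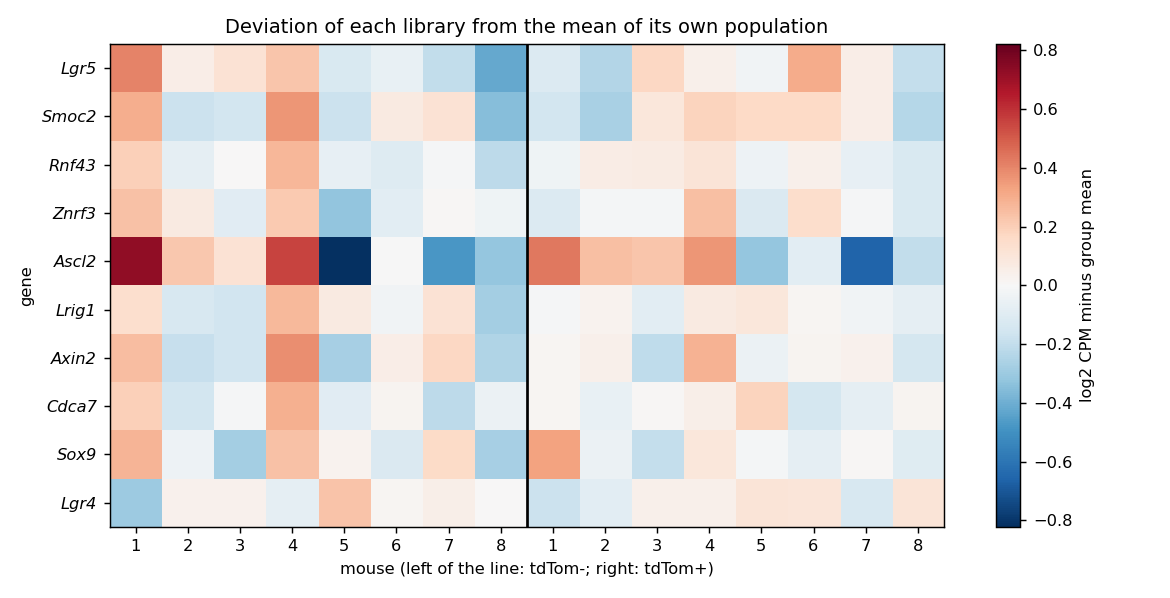
Log2 CPM of each of the 10 genes (rows) in each library (columns, mice 1 to 8 for tdTom- at left and tdTom+ at right) minus the mean of its own population, red for above and blue for below. Among tdTom- libraries mice 1 and 4 are red for 9 of the 10 genes, whereas Lgr4 is blue in mouse 1.

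Lgr5 had a larger fitted decrease in the first number series than in the last, but the difference did not pass. Its log2 fold change was −0.95 (SE 0.14, adjusted p = 0.000215) in mice 1 to 3 and −0.46 (SE 0.11, adjusted p = 0.00312) in mice 5 to 8. A term for this difference, added after the data were seen, gave 0.51 in the fit blocked by mouse (SE 0.13), which did not pass over all genes (adjusted p = 0.248). By that term 0 of 15851 genes (0%) were called, with 1795 (11.3%) at an unadjusted p under 0.05, and Lgr5 was the 1 member among them. In tdTom- libraries Lgr5 ran from 36.4 to 46.5 CPM in mice 1 to 3 and from 26.1 to 33.6 CPM in mice 5 to 8, without overlap, as did 4.12% of all genes tested with mice 1 to 3 higher. In tdTom+ libraries the ranges overlapped, at 18.3 to 24.3 CPM and 18.8 to 26.8 CPM.
The Ascl2 ranges of the first and last series did not overlap in either population, which was described after the values were seen and not tested. In tdTom- libraries it ran from 14.6 to 22.3 CPM in mice 1 to 3 and from 7.56 to 13.4 CPM in mice 5 to 8, and in tdTom+ libraries from 9.38 to 10.8 CPM and from 5.02 to 7.54 CPM. Such a separation in both populations, with mice 1 to 3 higher, was found for 0.978% of genes tested and for no other member. The reverse, with mice 1 to 3 lower in both populations, was found for 1.28% of genes tested and for no member. What the number series stand for is not given in the sources used here.

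Likeness to Lgr5 was measured as Pearson's r of log2 CPM deviations from the population means over the 16 libraries, among 11650 genes of at least 5 CPM on average. Libraries of a mouse share the animal, so r is a description and carries no test. The most similar genes were Armc10 (0.78), Slc27a2 (0.78), Cdk6 (0.77), Fzd7 (0.77) and Slc16a13 (0.77), beside a median of −0.012 over all genes. Cdk6 encodes a G1 kinase and Fzd7 a Frizzled receptor. Of the members, Smoc2 (0.74) and Rnf43 (0.71) varied most like Lgr5, and Lgr4 (−0.29) least. In the 8 tdTom- libraries alone Rnf43 reached 0.84 and Ascl2 0.82, while Lgr4 was at −0.64. In the 8 tdTom+ libraries alone these values were 0.39 for Rnf43, −0.13 for Ascl2 and 0.34 for Lgr4. Smoc2 was at 0.695 in tdTom- and 0.82 in tdTom+ libraries alone, and Znrf3 at 0.60 and 0.56. Lrig1, Axin2, Cdca7 and Sox9 were between 0.55 and 0.68 in tdTom- and between −0.32 and 0.02 in tdTom+ libraries.

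Other Wnt target and feedback genes gave no common direction. Of 17 in the list, 12 were tested, 2 were lower, 2 were higher, and the median log2 fold change was −0.17. Wif1, a secreted Wnt inhibitor, had the largest decrease, −4.05 (SE 0.27, adjusted p = 4.79e-11), from 6.80 to 22.7 CPM in tdTom- to 0.429 to 1.36 CPM in tdTom+ libraries. Kremen1, a receptor for the DKK inhibitors, fell by 0.24 (SE 0.05, adjusted p = 0.000305). Tnfrsf19, a TNF receptor family member known as a stem cell gene, was higher by 1.81 (SE 0.17, adjusted p = 9.89e-09), and the transcription factor Ets2 by 0.45 (SE 0.07, adjusted p = 9.31e-06). Cd44, an adhesion receptor that is named after its values were seen, was lower in 8 of 8 mice (−0.39, adjusted p = 0.0926), and passed only when blocked by mouse (adjusted p = 5.35e-06). Apcdd1, Lef1, Dkk2, Dkk3 and Sfrp1 were near 0 (at most 1.12 CPM).

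Of 14 genes for Wnt and R-spondin supply, 3 had enough counts. The R-spondin genes Rspo1, Rspo2 and Rspo3 had 0 counts in all 16 libraries, and Rspo4 had at most 4. Wnt2b, Wnt3, Wnt4, Wnt6, Wnt9b and Wnt11 were at most at 1.30 CPM. Wnt5a, a ligand of non-canonical signalling, fell by 1.501 (SE 0.28, adjusted p = 8.35e-05), and Porcn, which acylates Wnt proteins, was higher by 0.50 (SE 0.14, adjusted p = 0.0045).
Of 21 genes of the signal core, 20 were tested, with 5 lower, 3 higher and a median of −0.010. Tcf7l2, the main TCF factor of the intestinal epithelium, fell by 0.84 (SE 0.10, adjusted p = 1.88e-07), and its relative Tcf7l1 was higher by 1.10 (SE 0.11, adjusted p = 1.64e-08). Ctnnb1, which encodes β-catenin, fell by 0.32 (SE 0.05, adjusted p = 2.34e-05). Amer1, a scaffold of the pathway, was higher by 0.69 (SE 0.09, adjusted p = 1.71e-06). Pygo1 was near 0.

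Of 14 other genes linked to intestinal stem cells, 12 were tested, with 5 lower, 4 higher and a median of −0.02. The water channel gene Aqp4 fell by 2.07 (SE 0.14, adjusted p = 3.14e-11) and Igfbp4, an IGF-binding protein, by 0.96 (SE 0.20, adjusted p = 0.000364). Fstl1, a secreted glycoprotein, was higher by 2.16 (SE 0.30, adjusted p = 2.84e-06) and the ion co-transporter Slc12a2 by 0.75 (SE 0.10, adjusted p = 1.87e-06). Olfm4, a stem cell marker of the small intestine, was at most at 1.43 CPM, and Slc14a1 had 0 counts.
Of 12 proliferation genes, all tested, 8 were lower and 0 higher, with a median of −0.39, and 11 were lower when blocked by mouse. Mcm3, a subunit of the replicative helicase, fell by 0.56 (SE 0.12, adjusted p = 0.000358), and the cyclin gene Ccna2 by 0.53 (SE 0.14, adjusted p = 0.00263). Their summed level was 764 to 1190 CPM in tdTom+ and 946 to 1680 CPM in tdTom- libraries. Its part in the members' differences was not tested.

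**Figure D5:**
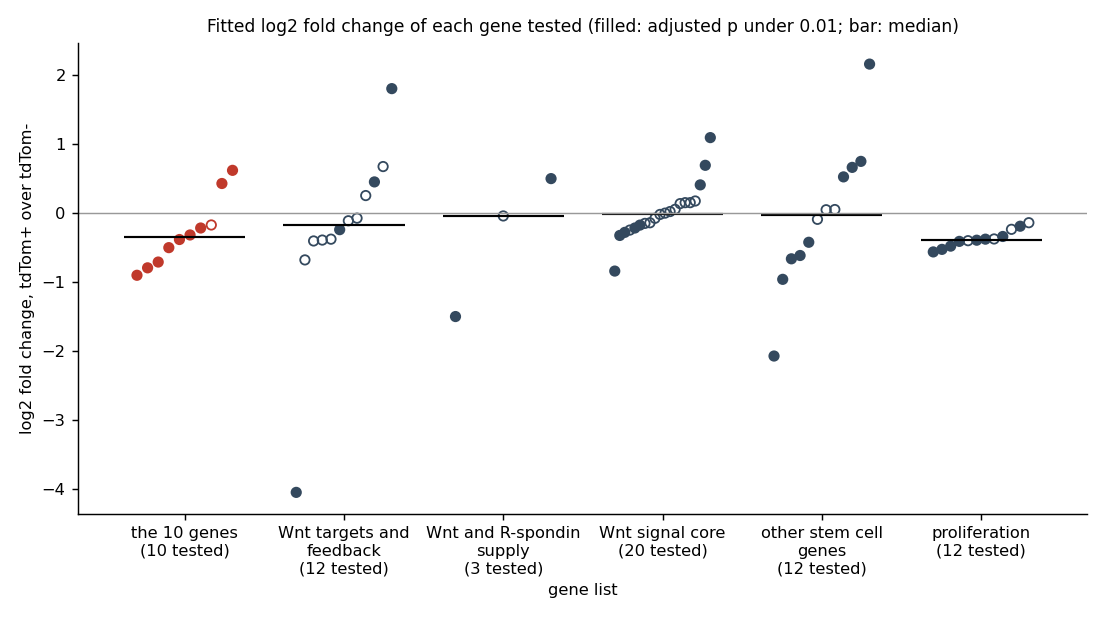
Log2 fold change of tdTom+ over tdTom- (vertical axis) of each tested gene in the member set and 5 other lists (horizontal axis), filled where the adjusted p was under 0.01, with a bar at the median. The 10 members spread from −0.90 to 0.62, and the proliferation genes lie below 0, while the other lists hold genes on both sides.

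Markers of other cell types moved with the sort. Of 9 goblet genes 9 were higher, and their summed level was 52800 to 111000 CPM in tdTom+ and 2330 to 9030 CPM in tdTom- libraries, with Spink4 (5.03) and Muc2 (4.61) changing most. Of 10 colonocyte genes 10 were lower, at 699 to 1060 CPM and 8230 to 16500 CPM in sum, led by Aqp8 (−5.18) and Car4 (−4.98). Of 10 enteroendocrine genes 8 were lower, led by Tph1 (−3.56) and Chga (−2.99), at 287 to 772 CPM and 1380 to 4030 CPM. Of 10 tuft cell genes 7 were lower, among them Siglecf (−2.20), and the summed level of the 10 was 55.5 to 117 CPM and 105 to 178 CPM. The 8 epithelial genes stood at 6720 to 7780 CPM and 10100 to 12900 CPM, with 6 lower and 1, Krt18, higher (0.68). Krt8 (−1.08) and Krt19 (−1.03) led the decreases.
Of 10 immune genes 4 were tested and 2 were lower, Ptprc (−1.52) and Cd68 (−0.81), at 7.05 to 13.4 CPM and 11.6 to 38.7 CPM in sum, and the lymphocyte genes Cd3e, Cd3g, Cd79a and Cd8a and the macrophage gene Csf1r were at most at 2.01 CPM. Of 10 stromal and endothelial genes 4 were tested, with 3 lower, led by Pecam1 (−1.58) and Pdgfrb (−0.70), and 1, Vwf, higher (1.05), at 16.8 to 23.0 CPM and 18.5 to 27.6 CPM in sum. The collagen genes Col1a1, Col1a2 and Col3a1 and also Pdgfra, Cdh5 and Des were at most at 0.558 CPM. The part of these cell types in the members' differences was not tested.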

How the data were processed

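Colon cells of 8 mice were sorted and sequenced by the authors as 50 bp single-end stranded mRNA libraries. The submitters' notes name TopHat2 2.1.1, Subread 1.5.2, DESeq2 1.14.1 and GRCm38.p3, whereas the file headers name featureCounts v1.5.0-p1. The authors deposited whole-number counts per gene (exons, reverse strand, primary alignments) without normalization, and the exon length as the other column. Symbols came from a table of Ensembl identifiers and matched 44585 of 45513 genes. Members, gene lists, tests and the rule for named genes were chosen with earlier results of these data known. The rule named all members, in each other list the 2 largest changes past the threshold in either direction and genes near 0, Atoh1, Muc2 and the 5 genes most like Lgr5. Cd44 falls outside it, and some items that it names are not reported here.

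The test between populations was edgeR's (4.0.16, R 4.3.3), with filterByExpr, TMM factors, glmQLFit and glmQLFTest and without a mouse term. The SE was derived from the log2 fold change and F. Log2 CPM used a prior count of 2. Alternatives used DESeq2 1.42.0, limma 3.58.1 and the settings listed in the closing section. Summaries used Python 3.11.15, pandas 2.3.3 and scipy 1.17.1. Titles give each mouse's number on both libraries. Deviations of the libraries of a mouse correlated at 0.223 to 0.408 across genes, so the mouse number pairs them. No libraries of a group agreed within sampling noise. Counts were simulated for 15705 genes, with a log2 change of 0.5 in 100 genes and 1 in 100. On these edgeR recovered 42 and 98 with 2 false calls, and 61 and 99 with the mouse as a block, also with 2. DESeq2 gave 5 false calls without the block and 24 with it, and limma-voom gave 2. The simulation added a mouse effect to the spread of the unblocked fit, so its noise differs from that of the data. Totals were 16482530 counts or more, and every member had 84 counts or more in every library. In fits without a mouse term, p-values rest on the spread between libraries of a population. These fits treat both libraries of a mouse as independent. With the block and in the sign-flip tests, p-values rest on the spread of within-mouse differences over these 8 mice.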

Additional observations from a re-analysis of the deposited data

Results flagged for a closer look

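Libraries standing apart from the other 7 of their group by Dixon's gap were looked for among the genes named and the library totals. In the tdTom- group the library of mouse 4 stood apart in total counts (45791503, others 18318172 to 20668605), Aqp8 (8.33 log2 CPM, others 9.21 to 9.48), Car4 (9.56, others 10.02 to 10.44) and the Wnt regulator Kremen1 (5.22, others 4.97 to 5.07). In the tdTom+ group the library of mouse 2 stood apart in Krt18 (9.84 log2 CPM, others 9.52 to 9.67). No member was flagged in either group. There were 5 flags in 88 groups of values, and chance flags about 1 in 20 groups, here 4.4. Of the 5 flags, 4 fell on the tdTom- library of mouse 4. The groups share libraries and are not independent, so the count of 4.4 is no test of these flags.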

How the results depend on the processing

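The 10 members were refitted under 31 settings: the mouse as a replicate block (7 members lower, 2 higher, median −0.34), DESeq2 with and without the block, limma-voom, RLE and upper-quartile factors, library size only, no filter, a minimum of 10 counts per sample, single mice left out, mice 1 to 3 or 5 to 8 only, an adjusted p of 0.05, libraries thinned to the smallest, and, chosen after seeing the data, the block with either series of mice or with single mice left out. Direction was kept for all 10 members in every setting, and 2 members were higher in each. The number lower was 4 with mice 1 to 3 only (5 with the replicate block), 4 with mice 5 to 8 only (6 with the block), and 4 to 7 with 1 mouse left out; fewer samples entered these fits. The median ran from −0.41 to −0.26. Shares of all genes called under these alternative settings are not given here. Lgr5, Ascl2, Cdca7, Lgr4, Sox9 and Lrig1 passed in every setting, and Znrf3 passed in none (adjusted p = 0.0251 to 0.491). Axin2 lost its call in 7 settings, Rnf43 in 11 (without a filter, adjusted p = 0.0147) and Smoc2 in 3. The replicate block changed no member's call. In the other lists it raised the number lower from 8 to 11 for proliferation, 5 to 7 for the signal core (with 3 to 4 higher), 2 to 3 for Wnt targets (Cd44), 7 to 8 for tuft and 2 to 3 for immune genes. With 1 mouse left out, Axin2 minus Lgr5 ranged from 0.32 to 0.45, and it passed without mouse 6 (0.45, adjusted p = 0.0469). The other pair differences passed in no setting (Lgr5 minus Lgr4 0.14 to 0.30, Znrf3 minus Rnf43 0.02 to 0.08). The median of all genes was 0.004 with TMM and −0.05 with library size only. The cause of these dependences was not tested.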
